A study of Python bivittatus with 8 samples.

Results

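Ventricles of Burmese pythons (Python bivittatus) taken 4 days after a meal (4DPF, days post-fed) were compared with ventricles of fasted pythons, using 4 of the 8 libraries of the study, 2 a group. The 4 libraries were chosen by their labels: 4DPF replicates 1 and 2, and fasted replicates 1 and 2. All snakes were captive-bred and labelled wild type. Fasted snakes had gone 28 days without food, and 4DPF snakes had the same fast and were then fed rodents weighing 25% of what the snake weighed. The remaining 4 libraries, from snakes 1 and 6 days after the meal (1DPF and 6DPF), entered the statistical fit and serve below to place the fasted and 4DPF levels in the course of the response. RNA was extracted from frozen left ventricle, enriched for poly-A transcripts and sequenced.

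A python's heart enlarges soon after a large meal, while circulation and metabolism run far above their fasting rate, and shrinks again once the meal has been digested. In vertebrate hearts generally, growth draws on protein synthesis through insulin and mTOR signalling, and loss of mass on protein breakdown by the ubiquitin-proteasome system and autophagy, which FoxO transcription factors promote. The study places 4DPF early in the shrinking phase. The comparison with fasted ventricle asks how far the transcripts of the heart stand from the resting state at that time.

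The deposited table identifies genes by number only, so no gene is named here and the markers of cardiac muscle and of other cell types were not analysed here. Genes are therefore described in groups, by direction, size of change, abundance, length and course. Fasted libraries held 33203808 and 36500222 counts and 4DPF libraries 40500773 and 38013128, so that 1 read was worth between 0.0247 and 0.0301 CPM (counts scaled to a fixed library total) before TMM scaling, which the levels below include. Over 16986 tested genes, the root mean square difference in log2 CPM was 0.49 between the fasted libraries, 0.64 between the 4DPF libraries and between 0.74 and 0.83 over the 4 pairs of a 4DPF with a fasted library. In bulk tissue, a change in the number of cells of a type and a change in RNA per cell cannot be told apart.

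Early regression differed from the fasted state in both directions. At 4DPF, 772 genes were higher (4.54% of those tested) and 683 lower (4.02%), together 1455 genes or 8.57% (edgeR quasi-likelihood test, Benjamini-Hochberg adjusted p under 0.05, called below). The higher genes changed more: their middle 50% spanned log2 changes of 0.74 to 1.65, against -1.16 to -0.67 for the lower genes. This was without regard to abundance, in which the sets differed (given below). Changes of at least 2-fold numbered 386 upward and 235 downward, those of at least 4-fold 141 and 48, and those of at least 8-fold 59 and 17. The smallest change that was called was 0.45 on the log2 scale in each direction. The median standard error was 0.19 for the higher genes and 0.16 for the lower ones.

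Going from near absence to presence was rare. A single gene had at most 3 reads in each fasted library and at least 1 CPM in each 4DPF library, and no gene of the table showed the reverse. That gene had 2 and 0 reads in the fasted libraries, 3 and 0 reads on day 1, 146 and 46 reads on day 4, and 235 and 130 reads on day 6. It was near absent in fasted and 1DPF ventricle and present in every 4DPF and 6DPF library.

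**Figure D1:**
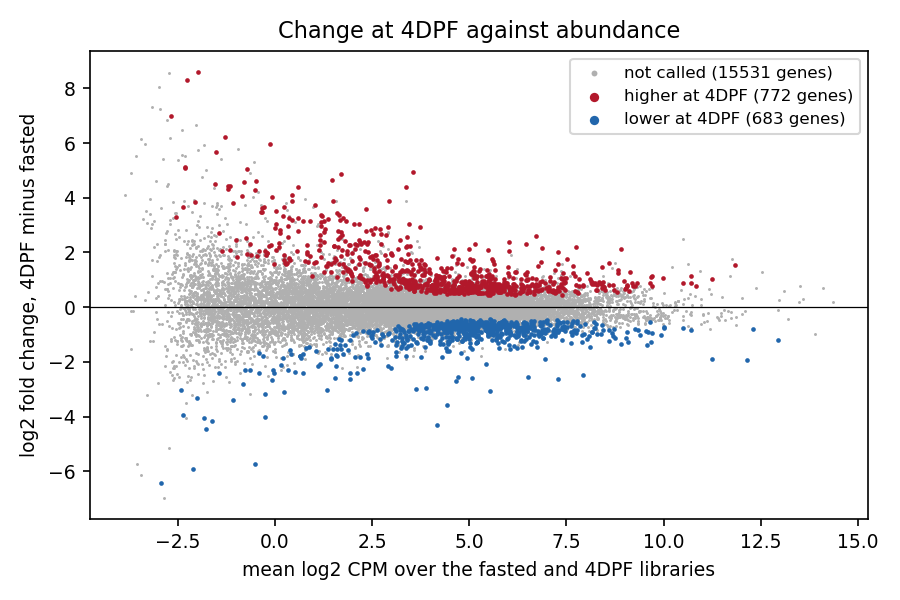
Log2 fold change (4DPF minus fasted, edgeR) of each of 16986 tested genes against its mean log2 CPM over the 4 compared libraries. The 772 genes called higher and the 683 called lower are coloured, and called changes are larger at low abundance.

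The size of the called changes differed with abundance. Tested genes were placed in 4 equal bins by mean CPM. In the most abundant bin, with a median of 78.7 CPM, 6.33% were called higher and 7.44% lower, and the called genes had a median absolute log2 change of 0.80. In the least abundant bin, with a median of 0.903 CPM, 2.02% were called higher and 0.895% lower, and the median absolute change of the called genes was 2.39. The median standard error was 0.16 in the former and 0.54 in the latter, so that a change had to be larger to be called among rare transcripts. The least abundant bin and the next held 86 and 209 of the 772 higher genes, and 38 and 100 of the 683 lower ones. What this adds to the larger size of the upward changes was not tested. Taking abundance per length, as CPM per kilobase, the 50 most abundant genes held 21.01% of the fasted counts and 22.1% of the 4DPF counts. Of these 50, 2 were called higher and 3 lower, and the median absolute log2 change of all 50 was 0.39. The fitted change, called or not, was at least 2-fold in 7 of them, and the largest absolute log2 change was 1.92. Among the 500 most abundant by the same measure, 56 were called higher and 25 lower. Of these 500, 11.2% were called higher and 5% lower, and of the 50, 4% and 6%, against 4.54% and 4.02% of all tested genes. The shares of the 50 rest on few genes. Ranking by CPM per kilobase favours short genes, and calls differed with gene length (given below). What this adds to the shares was not tested.

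As a whole, the called genes, 8.57% of those tested, took a visible share of the counts, which are not adjusted for gene length. The 772 higher genes held 4.51% and 3.84% of the counts of the fasted libraries and 8.17% and 8.16% of those at 4DPF. The 683 lower genes held 9.65% and 10.8% in the fasted libraries and 5.01% and 4.94% at 4DPF. The libraries of a group lay close together and the groups did not overlap in either sum, which the choice of the genes by this same contrast brings about.

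The 2 largest increases and the 2 largest decreases are given by number, out of the called genes that averaged 3 or more in log2 CPM over the compared libraries and whose groups did not overlap. Of all called genes, 547 higher and 597 lower ones met that condition. Gene 103061138, of 3104 bases, stood at 2.58 and 1.79 CPM in the fasted libraries and at 92.1 and 42.2 CPM at 4DPF. Its levels in between were 15.9 and 6.53 CPM at 1DPF, and it was at 18.9 and 10.3 CPM at 6DPF. Both 4DPF libraries were above all 6 others, although they differed from each other by more than the fasted libraries did. Its log2 change from fasted was 4.94 (SE 0.61, 95% interval 3.53 to 6.35, edgeR adjusted p = 0.0141).

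Gene 103065648, of 3725 bases, had a like course. The fasted libraries had 2.30 and 2.43 CPM, those at 1DPF 11.1 and 7.65, those at 4DPF 71.1 and 28.4, and those at 6DPF 10.1 and 4.89. Again the 4DPF libraries were the highest of the 8, with the fasted ones lowest. The log2 change from fasted was 4.39 (SE 0.54, 95% interval 3.15 to 5.64, edgeR adjusted p = 0.0141).

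Gene 112541451, of 4990 bases, fell the most of the called genes under the same condition. Its fasted libraries stood at 82.3 and 85.7 CPM, with 5.87 and 4.89 CPM in the 1DPF libraries, 2.49 and 5.99 CPM in the 4DPF libraries and 62.8 and 48.8 CPM in the 6DPF libraries. The levels at 1DPF and 4DPF overlapped, and the 6DPF libraries lay below the fasted ones. Its log2 change at 4DPF was -4.31 (SE 0.38, 95% interval -5.19 to -3.44, edgeR adjusted p = 0.0119). Gene 103048176, of 3332 bases, had 60.97 and 91.0 CPM in the fasted libraries, 1.16 and 0.608 CPM in the 1DPF libraries, 4.77 and 8.12 CPM in the 4DPF libraries and 35.3 and 38.9 CPM in the 6DPF libraries. Here the 1DPF libraries were the lowest, and each later group lay above the one before it without reaching the fasted level. Its log2 change at 4DPF was -3.56 (SE 0.34, 95% interval -4.35 to -2.77, edgeR adjusted p = 0.0129).

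**Figure D2:**
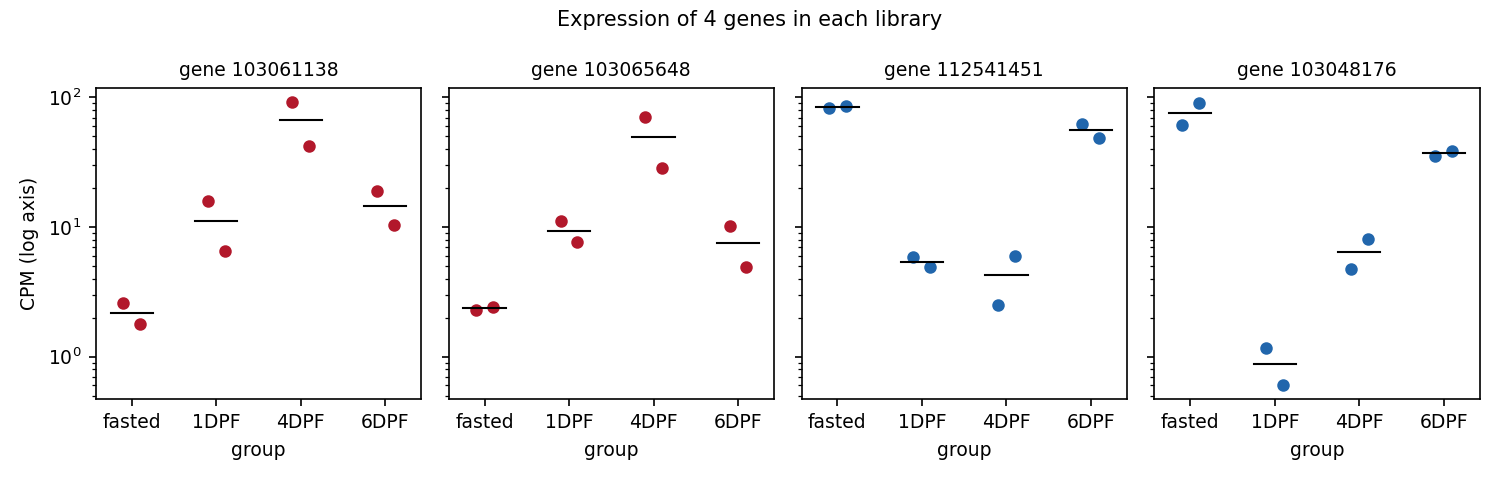
CPM (log axis) of 4 genes in each of the 8 libraries, by group. Points are libraries and bars are group means. The 2 genes on the left peaked at 4DPF, and the 2 on the right were low at 1DPF and 4DPF and nearer to the fasted level at 6DPF.

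The levels at 1DPF and 6DPF had no part in the direction of these calls, and are given to describe the course. For the 772 higher genes, the median level was 14.6 CPM fasted, 26.3 CPM on day 1, 28.3 CPM on day 4 and 21.8 CPM on day 6. For the 683 lower genes it was 45.4, 25.1, 25.1 and 35.2 in the same order. The mean at 6DPF lay between the fasted and the 4DPF mean in 611 of the 772 higher genes (79.1%) and 617 of the 683 lower genes (90.3%). Calling picks genes whose fasted and 4DPF means lie far apart, which widens the space between them. The counts for 6DPF, and those for 1DPF that follow, are therefore descriptions. The same counts over all tested genes were not made. The mean at 1DPF lay beyond the 4DPF mean in 256 of the higher genes (33.2%) and 304 of the lower ones (44.5%), between both means in 391 and 360, and on the far side of the fasted mean in 125 and 19.

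**Figure D3:**
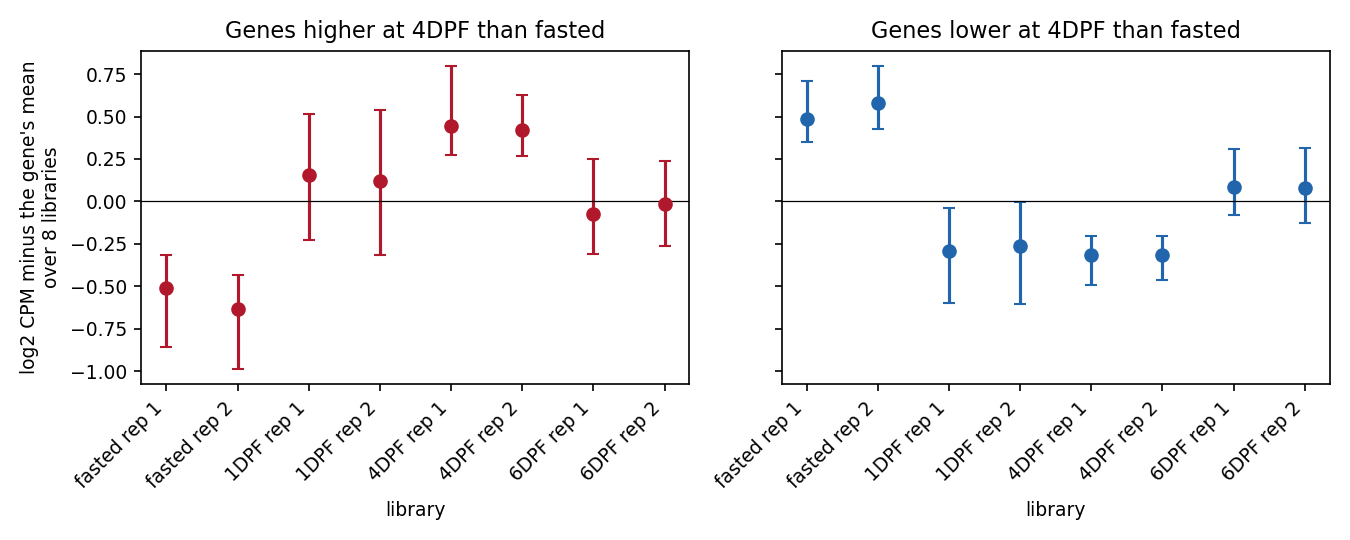
Median (points) and middle 50% (bars) over genes of log2 CPM minus the gene's own mean over 8 libraries, per library, for the 772 genes higher and the 683 lower at 4DPF than fasted. Libraries of the same group lie close together, and the 6DPF medians lie between the fasted and the 4DPF ones in both sets. Choosing the genes by the 4DPF and fasted difference sets those groups apart and widens the space between them, so both are descriptions.

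The called genes were divided further by the difference between 6DPF and 1DPF, whose fold changes draw on no fasted or 4DPF library. Over all tested genes, 11.3% were higher and 10.4% lower at 6DPF than at 1DPF (edgeR, adjusted p under 0.05). Of the 772 genes higher at 4DPF, 135 (17.5%) were called higher at 6DPF than at 1DPF and 242 (31.3%) lower. Of the 683 genes lower at 4DPF, 264 (38.7%) were called higher by this contrast and 26 (3.81%) lower. The first 3 shares were above those of all tested genes, and the last was below. For the first, this was reversed in the most abundant bin and the one next to it (given below). Both comparisons rest on dispersions from the same fit, and genes with little spread are called more readily in either; what this adds to the shares was not tested. Without 1DPF replicate 2, 89 and 179 of the 772 and 167 and 13 of the 683 were called higher and lower, where all tested genes had 5.50% and 5.08%. Without 6DPF replicate 1, the 242 became 157 and the 26 became 14, where 4.96% of all tested genes were called lower. The 26 became 16 without 1DPF replicate 1 and 11 without 6DPF replicate 2, where 7.10% and 5.54% of all tested genes were called lower.

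Those sets had different levels. The calls that chose a set fixed the order of its fasted and 4DPF levels, and of its 1DPF and 6DPF levels. The medians below are therefore descriptions. The 135 genes that were higher at 4DPF and again higher at 6DPF than at 1DPF had low medians of 2.48 CPM fasted and 2.17 CPM on day 1. Their medians were 10.7 CPM on day 4 and 13.8 CPM on day 6. All tested genes had medians of 13.5 CPM fasted, 13.5 on day 1, 13.6 on day 4 and 13.6 on day 6. The median log2 change of the 135 genes from fasted was 1.95 at 4DPF. The 242 genes that were higher at 4DPF but lower at 6DPF than at 1DPF went from 24.2 CPM fasted through 55.7 at 1DPF and 44.7 at 4DPF to 28.1 at 6DPF, with the highest median at 1DPF. The 264 genes that were lower at 4DPF and higher at 6DPF than at 1DPF went from 45.4 CPM through 17.3 and 23.9 to 37.1, with the lowest median at 1DPF. The 26 genes that were lower at 4DPF and also lower at 6DPF than at 1DPF had medians of 20.1 CPM fasted, 22.9 on day 1, 11.9 on day 4 and 14.5 on day 6, the lowest being at 4DPF. The other 395 higher and 393 lower genes were not called between 1DPF and 6DPF.

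The division of the higher genes followed abundance. In the least abundant bin, 38.4% of the 86 genes higher at 4DPF were called higher at 6DPF than at 1DPF and 9.30% lower, where all genes of that bin had 6.55% and 3.30%. In the next bin, 28.7% of the 209 higher genes were called higher and 22.5% lower, where all genes had 12.9% and 9.82%. In the bin after that, 8.17% of the 208 higher genes were called higher and 35.6% lower, where all genes had 12.3% and 14.0%. In the most abundant bin, 9.29% of the 269 higher genes were called higher and 42.0% lower, where all genes of that bin had 13.6% and 14.3%. Among genes lower at 4DPF, the share called higher at 6DPF than at 1DPF was between 37.0% and 45.9% in the 3 more abundant bins, where all genes had between 12.3% and 13.6%, and 10.5% of 38 genes in the least abundant one, where all genes had 6.55%. The share called lower was between 1.90% and 8% in the 3 more abundant bins, where all genes had between 9.82% and 14.3%, and 7.89% in the least abundant one, where all genes had 3.30%.

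Gene length also moved with the change. Median gene length was 2323.5 bases for the higher set, 3879 for the lower set and 2503 for all tested genes. With the tested genes in 5 equal bins by length, in the shortest bin 4.03% were called higher and 1.47% lower, and in the longest bin, of 4445 bases or more, 2.74% and 8.30%. The median log2 change at 4DPF went from 0.10 in the shortest bin to -0.15 in the longest. At each end, all pairings of a 4DPF with a fasted library shared a sign. Their medians were 0.036 to 0.14 in the shortest bin and -0.21 to -0.093 in the longest. Replicates of the same group differed by length as well: 4DPF replicate 2 minus replicate 1 had medians of 0.054 in the shortest and -0.087 in the longest bin, and fasted replicate 2 minus replicate 1 had -0.055 and 0.038. With each library's trend with length removed, an alternative added after the data were seen, 621 genes were called higher and 664 lower. Of the 772 higher and 683 lower genes of the main fit, 578 and 558 were among them.

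**Figure D4:**
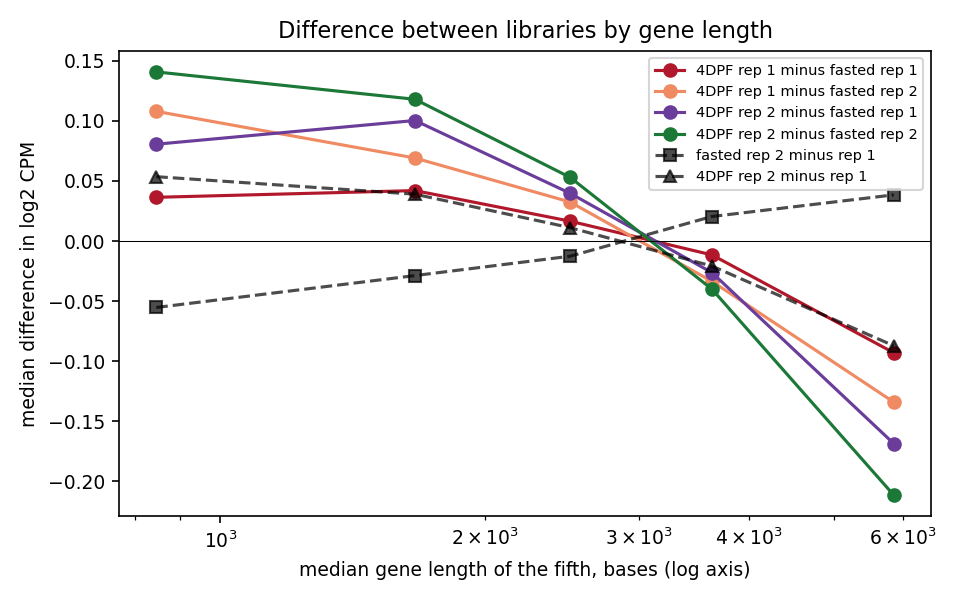
Median difference in log2 CPM between libraries for genes in 5 groups of equal number by length, against the median length of the group in bases (log axis). The 4 solid lines pair a 4DPF with a fasted library and go from above 0 in short genes to below 0 in long ones. The dashed lines pair replicates of the same group, and the one for 4DPF spans about as much as the narrowest solid line.

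The 15531 genes that were not called were not all shown to be alike in fasted and 4DPF ventricle. For 8928 of them (57.5%), the 95% interval of the log2 change lay within 2-fold in either direction. For the other 6603 the interval reached 2-fold or more, and in 1370 genes the fitted change itself was at least 2-fold. Both 4DPF libraries lay above both fasted libraries in 5223 of all tested genes and below them in 5308, together 62% of the genes tested. All 1455 called genes were among them, as were 9076 genes that were not called. With 2 libraries a group, such separation also arises often where groups do not differ, so it was not taken as a difference.

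A set of genes separated the 4DPF libraries from each other. In 62 genes, the level in 4DPF replicate 2 was at least 8-fold that in replicate 1 and at least 1 CPM, while 3 genes showed the reverse. The same criterion found 9 and 12 genes between the fasted libraries, 50 and 20 between those at 1DPF, and 5 and 12 between those at 6DPF. The 62 genes summed to 24.2 CPM in 4DPF replicate 1 and to 1083 CPM in replicate 2, and to 674 CPM in 1DPF replicate 1, where 40 of them reached 1 CPM. A single gene gave 642 of the 1083 CPM, and a single gene 297 of the 674 CPM. The median gene of the 62 stood at 3.65 CPM in 4DPF replicate 2 and at 1.67 CPM in 1DPF replicate 1. In the other 5 libraries the sum of the 62 lay between 90.7 and 124 CPM. None of the 62 was called between 4DPF and fasted, where 8.57% of all tested genes were. The difference between the 4DPF libraries by which they were chosen works against a call. What these genes are was not analysed here.

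The number of calls depended on having both libraries of each compared group. Leaving out fasted replicate 1 or 2 brought the 1455 calls to 3 and 4, and leaving out 4DPF replicate 1 or 2 brought them to 29 (22 higher and 7 lower) and 381 (292 higher and 89 lower). As both 4DPF libraries lay on the same side of both fasted ones in every called gene, the direction of a call could not turn in these fits. The median log2 change of the 772 higher genes was between 0.94 and 1.09 in them, against 1.00 with all libraries. That of the 683 lower genes was between -0.86 and -0.77, against -0.85. The genes were chosen with all libraries in the fit, so these medians are descriptions. Leaving out a 1DPF or 6DPF library, which costs the fit a library outside the comparison, gave between 1199 and 1258 calls. Of the 4 genes given by number, none was called without either fasted library, with adjusted p between 0.0529 and 0.129 (edgeR), and gene 103061138 also missed the threshold without 4DPF replicate 1, with a log2 change of 4.30 (edgeR adjusted p = 0.0524).

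**Figure D5:**
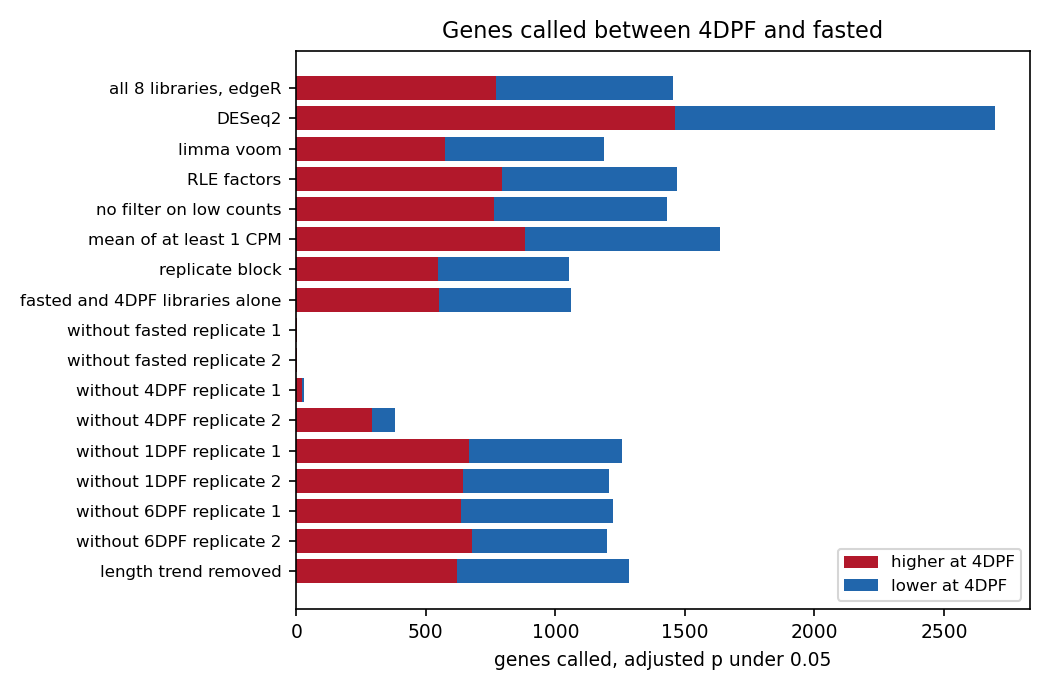
Number of genes called higher and lower between 4DPF and fasted (adjusted p under 0.05) with all libraries and under each alternative. The bars without a fasted library stand at 3 and 4 genes, and those without a 1DPF or 6DPF library between 1199 and 1258.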

How the data were processed

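Deposited values were whole-number read counts of each gene in 8 libraries, not normalized, beside each gene's length, per the file headers. The submitters' processing notes name FastQC, featureCounts, DESeq2 1.36.0, SAMtools 1.8, HISAT2 2.1.0 and Trimmomatic 0.36. Build, annotation, strand setting and the treatment of multi-mapping reads: not given in the sources used here. Reads of overlapping, antisense and near-identical genes may therefore be misassigned.

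Columns were matched to samples by description label. Of 21368 genes, 16986 passed filterByExpr (minimum count 10, total 15) and held at least 99.978% of every library. A single edgeR 4.0.16 quasi-likelihood fit (R 4.3.3, TMM factors, no term but group, 4 residual degrees of freedom) used all 8 libraries, so that the groups share an estimate of spread. CPM use TMM-scaled totals, except in the search for genes going from near absence to presence and in the worth of 1 read, which used plain totals. Log2 CPM use a prior count of 2. Standard errors and 95% intervals come from the fold change and F statistic. The steps were tested on a simulated set of data. There the share of false calls was above the 0.05 threshold, and most of the smaller changes were missed. Fewer genes were changed there than were called here, so these shares need not hold for the real data. Alternatives included DESeq2 1.42.0 and limma 3.58.1 with voom. Replicates were not duplicates of a single library, as their chi-square per degree of freedom was at least 48.6. The labels do not say that replicates are separate snakes, and the protocol's n = 6 snakes for sequencing and proteomics is below 8, so p-values measure only the spread between libraries, which may be technical. The genes given by number are the 2 highest and 2 lowest log2 changes under the condition stated with them. The comparison, lists and rules were chosen with earlier results of these data known. Gene lists written as symbols could not be matched to gene numbers and were not analysed here.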

Additional observations from a re-analysis of the deposited data

How the results depend on the processing

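DESeq2 called 2696 genes, 1460 higher and 1236 lower (622 higher by at least 2-fold, against 386), and left 659 genes without an adjusted p. With 1 library left out, between 3 and 1258 genes were called, between 2 and 679 higher and between 1 and 590 lower. A fit with the replicate block called 1054, 547 higher and 507 lower. The replicate differences of fasted and 4DPF correlated at 0.086 over genes, and the labels do not link the numbers. Totals were within 1.5 times the reported one with RLE factors (1468), no filter (1430), a mean of at least 1 CPM (1637), the fasted and 4DPF libraries alone (1060), limma voom (1187) and the length trend removed (1285, added after the data were seen). The last 2 called fewer genes higher than lower, with 574 and 613 for voom and 621 and 664 with the trend removed. Settings with like totals shared the reported calls to differing extents. Of the 772 higher and 683 lower calls, the fit on the fasted and 4DPF libraries alone shared 479 and 428. The replicate block shared 507 and 460, limma voom 571 and 599, RLE factors 772 and 670, and the length trend removed 578 and 558. DESeq2, which called more genes, shared 767 and 678. The 571 and 599 were nearly all of the 574 and 613 voom calls. None of these settings called any of the 1455 genes in the opposite direction. For none of these differences between settings was the cause tested. Counts for gene lists were not run, as the genes have no names here.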
